A study of Mus musculus with 6 samples.

Results

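Voltage-gated sodium channel subunits were examined in lung RNA of mice lacking Carm1 and of wild-type mice. The 8 subunit genes were taken by name, 6 alpha subunits (Scn1a, Scn3a, Scn4a, Scn7a, Scn8a and Scn9a) and 2 beta subunits (Scn2b and Scn3b), and every probe set whose platform annotation gave one of these genes was kept. This gave 7 genes of 18193 named on the array, with 23 of its 45101 probe sets, and Scn4a, the alpha subunit of skeletal muscle, had no probe set named for it here. The genes had been selected on measured values of these arrays, namely which subunits gave signal and how they differed between knockout and wild type, so their levels and differences are given below as descriptions, with no p-value. Carm1 encodes an arginine methyltransferase that serves as a coactivator of nuclear receptors. The 3 wild-type samples carried no stated alteration and were described as neonatal lung in their labels, while the 3 Carm1 knockout samples were described as lung at embryonic day 18.5, the age that the study's design gives for both genotypes. The knockout labels spell the gene CRAM1, and the design text carm1. Strain, litter, sex and the deleted part of Carm1 were not given, all animals were untreated as far as the labels say, and separate fetuses were not stated. If the wild types were neonatal as labelled, age and genotype cannot be told apart in any difference given below. In whole lung, fewer cells of a type and less RNA per cell cannot be told apart.

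A voltage-gated sodium channel consists of a large pore-forming alpha subunit, which opens on depolarization and lets sodium in, and of smaller beta subunits with an immunoglobulin-like outer domain, which adjust gating and surface density and act in cell adhesion. Scn1a, Scn3a, Scn8a and Scn9a encode alpha subunits best known from neurons, Scn3a being the form most used before birth and Scn9a that of pain-sensing and sympathetic neurons. Scn7a encodes the atypical family member Nax, which is not opened by voltage in the usual way, is known as a sensor of the sodium level and is found in lung and in glia as well as in the brain. Scn2b links to its alpha subunit by a disulfide bond, whereas Scn3b associates without one.

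Scn3a, Scn1a, Scn9a and Scn7a lie in a row on mouse chromosome 2, together with Scn2a, Csrnp3, Galnt3 and Ttc21b, and Scn9a is the gene directly beside Scn7a. The promoters of these neighbours, 250 bases before and 50 after the annotated start, are shown because Scn7a gave signal on all arrays and Scn9a did not exceed background on any. They are from RefSeq, build GRCm38.p6, both on the minus strand, Scn7a at chr2:66784861-66785160 and Scn9a at chr2:66634913-66635212. Capitals mark CG dinucleotides, the sites of DNA methylation.

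Scn7a: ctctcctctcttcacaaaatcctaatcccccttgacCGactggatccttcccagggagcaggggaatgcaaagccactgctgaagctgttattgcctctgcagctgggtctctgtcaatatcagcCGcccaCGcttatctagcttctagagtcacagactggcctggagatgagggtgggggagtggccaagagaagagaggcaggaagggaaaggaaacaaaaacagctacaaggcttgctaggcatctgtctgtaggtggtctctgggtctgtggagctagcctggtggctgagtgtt
Scn9a: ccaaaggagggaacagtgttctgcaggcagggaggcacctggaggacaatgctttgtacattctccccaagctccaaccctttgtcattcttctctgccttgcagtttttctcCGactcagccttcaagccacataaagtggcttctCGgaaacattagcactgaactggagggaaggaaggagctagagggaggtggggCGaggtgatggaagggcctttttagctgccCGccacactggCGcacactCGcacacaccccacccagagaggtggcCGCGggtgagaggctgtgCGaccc

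The Scn7a promoter held 3 CG dinucleotides and that of Scn9a 9, against a median of 7 over 32851 promoters of the same length, and 31.4% of all promoters held as few as Scn7a or fewer. Neither window held TATAAA or CCAAT on either strand, motifs found in 13.6% and 37.4% of all promoters. Of the subunit genes, 6 had a promoter in the table. Scn2b had 2 CG dinucleotides, and the 2 promoters of Scn8a had 38 and 12.

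The arrays were scaled to 1 trimmed mean, and their median signals lay between 105.8 and 121.4. The targeted gene Carm1, at a probe set whose position relative to the deletion is not known here, read 814, 678 and 865 on the wild-type arrays and 395, 374 and 511 on the knockout arrays, a mean drop from 786 ± 96.4 to 427 ± 73.6 (SD, n = 3; limma, adjusted p = 0.105). Lung markers were present on all arrays, among them Sftpc of alveolar type II cells (50143 ± 6509 and 52420 ± 3618) and the lung transcription factor Nkx2-1 (402 ± 83.8 and 364 ± 123). Probe sets for bacterial RNA, which can be added as a control before labelling, gave medians of 579 and 375 on 2 wild-type arrays (replicates 1 and 3) and at most 14.1 on the remaining 4 arrays. Among the wild-type arrays replicate 2 alone shared the lack of bacterial RNA with the knockouts, and values from these 4 arrays, 1 of wild type and 3 of knockout, are given beside the main results. From Xist and Y-linked transcripts, 1 array of each genotype was read as male, so that sex was balanced between them.

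A signal level of background was taken from the same bacterial probe sets on arrays without that RNA. Values of the bacterial Trpn probe sets on wild type replicates 1 and 3, which had that RNA, were added. These 114 values had a median of 7.06 and a highest value of 57.1. Of the 23 sodium channel probe sets, 7 lay above that highest value on all 6 arrays, 2 of Scn3b, 3 of Scn7a, and 1 each of Scn3a and Scn2b. The same 7 were those above the filter on low signal, which kept probe sets with a geometric mean above 59.7. Just inside the filter were the probe sets of Scn2b (97.1) and Scn3a (102), and just outside were the other 2 of Scn2b (58.0 and 54.4). A total of 13 probe sets exceeded 57.1 on no array. Brightness of different probe sets is not compared further, since probes differ in how strongly they bind.

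**Figure D1:**
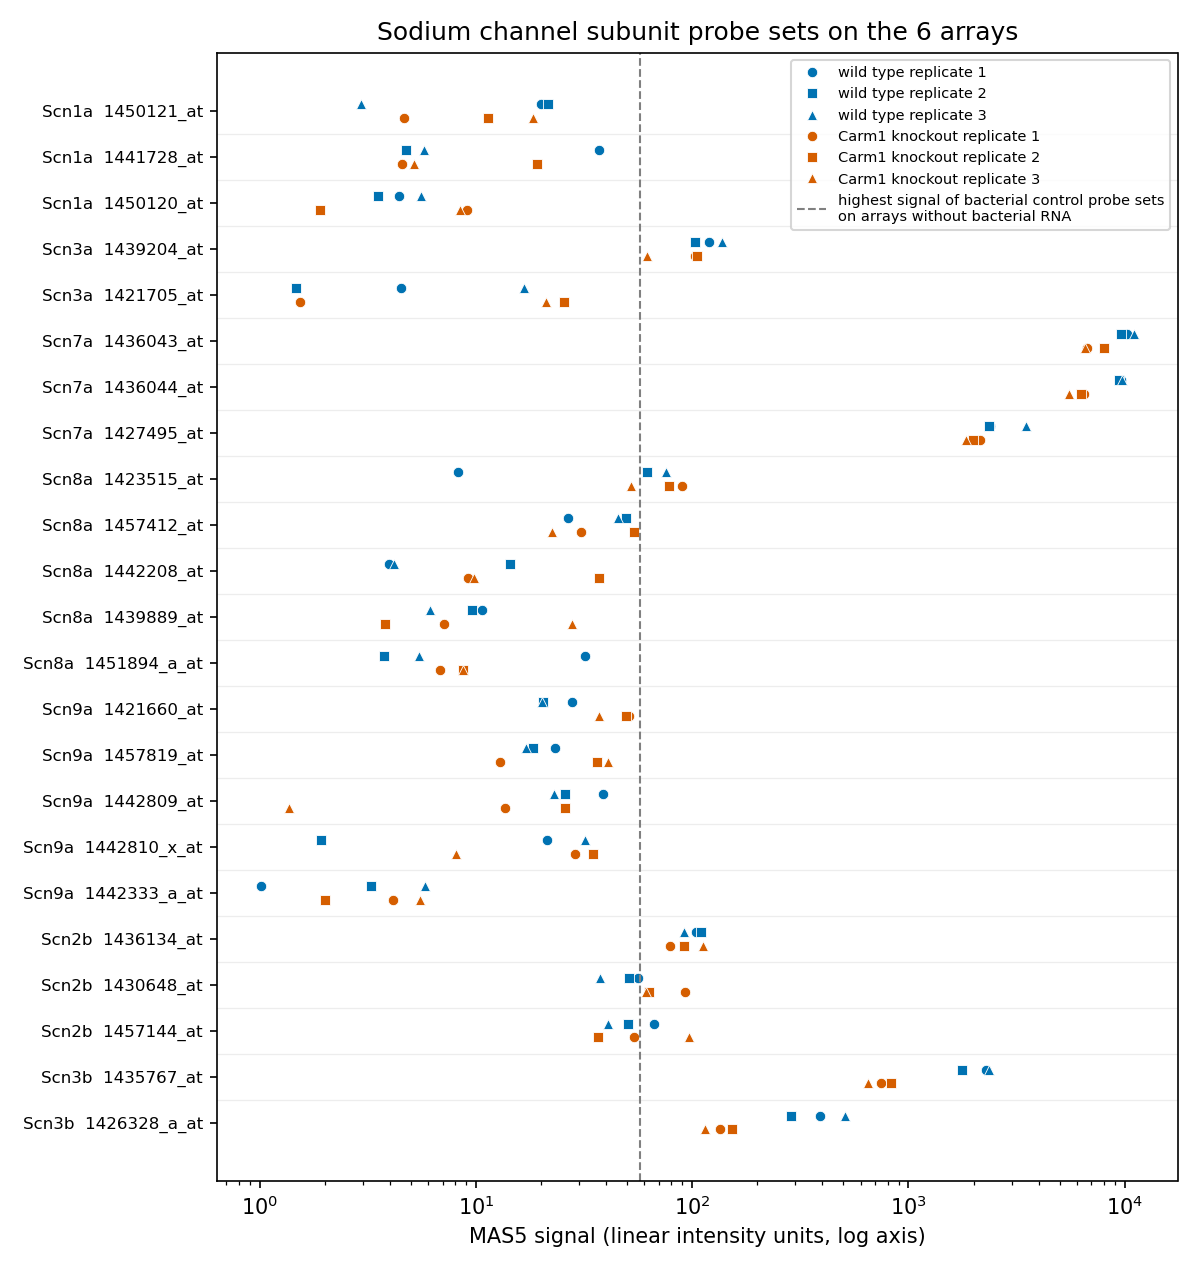
MAS5 signal (log axis, linear intensity units) of each of the 23 sodium channel probe sets on the 3 wild-type (blue) and 3 Carm1 knockout (orange) arrays. The dashed line marks 57.1, the highest of the background values from bacterial control probe sets. The probe sets of Scn7a and Scn3b lie to its right with the knockout arrays below the wild-type arrays.

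Among the alpha subunits, Scn7a was measured at 3 probe sets, 2 of which were designed on the same expressed sequence. At probe set 1436043_at the wild-type arrays had signals of 10303, 9651 and 11032 and the knockout arrays 6664, 8048 and 6552. At 1436044_at the wild-type signals were 9666, 9413 and 9723 and the knockout signals 6454, 6299 and 5552. The knockout arrays were below the wild-type arrays at both, and the wild-type arrays at 1436044_at lay close together (9600.5 ± 165, SD, n = 3). At the third, 1427495_at, wild type gave 2382, 2366 and 3485 and knockout 2149, 1987 and 1853. The groups did not overlap there either, but the lowest wild-type signal was 1.10 times the highest knockout signal, against 1.46 times at 1436044_at and 1.20 times at 1436043_at.

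On the log2 scale the knockout minus wild type difference of Scn7a was −0.55 (SE 0.11), −0.66 (SE 0.09) and −0.44 (SE 0.16) at these probe sets in that order. The knockout level was thus 68.4% of the wild-type level at 1436043_at, with a 95% confidence interval from 57.7% to 81.2%. It was 63.4% at 1436044_at (54.9% to 73.3%) and 73.9% at 1427495_at (57.8% to 94.4%). The 3 intervals overlap, and the size of the Scn7a difference is therefore given as a range over its probe sets. With the 4 arrays without bacterial RNA the differences were −0.45, −0.63 and −0.25.

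Scn3a had 1 probe set above background and 1 below. At 1439204_at the wild-type signals were 120, 103 and 137 and the knockout signals 103, 105 and 61.7, so that the groups overlapped and knockout replicate 3 was the lowest array. The difference was −0.44 on the log2 scale (SE 0.31), with an interval from −1.15 to 0.26, and it was −0.19 without knockout replicate 3. At 1421705_at all 6 arrays were at or under 25.5.

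The other neuronal alpha subunits gave little or no signal above background. The 3 probe sets of Scn1a, the channel of inhibitory neurons, ranged from 1.90 to 36.8 over the 6 arrays. The 5 probe sets of Scn9a ranged from 1.01 to 51.2, all under the background level of 57.1. One of them, 1421660_at, had signals of 27.8, 20.5 and 20.1 in wild type and 51.2, 49.4 and 37.0 in knockout, which did not overlap although no array exceeded background. Of the 5 probe sets of Scn8a, a channel of the axon initial segment and nodes, only 1423515_at exceeded background, on 4 arrays. It read 8.28, 61.5 and 75.5 in wild type and 89.8, 77.8 and 51.8 in knockout, with wild type replicate 1 far under the rest and the groups overlapping.

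Of the beta subunits, Scn3b was far lower in knockout. At probe set 1435767_at the wild-type arrays had signals of 2274, 1764.5 and 2366 and the knockout arrays 743, 829 and 649. Every knockout array was below every wild-type array, with the lowest wild-type signal 2.13 times the highest knockout signal. At the second probe set, 1426328_a_at, which detects several transcripts of the gene, wild type gave 388, 286 and 511 and knockout 134, 152 and 114. The lowest wild-type signal was 1.88 times the highest knockout signal there.

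The 2 probe sets of Scn3b gave nearly equal differences, −1.52 (SE 0.15) and −1.53 (SE 0.25) on the log2 scale. In knockout Scn3b was at 34.8% of the wild-type level at the first (95% confidence interval 27.6% to 43.8%) and at 34.5% at the second (23.4% to 50.9%). With the 4 arrays without bacterial RNA the differences were −1.26 and −1.11, since wild type replicate 2 had the lowest wild-type signal at both. The order of the 6 arrays was the same at both probe sets, from wild type replicate 3 at the top through replicates 1 and 2 to knockout replicates 2, 1 and 3.

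Scn7a showed the same order among wild-type arrays at all 3 of its probe sets, and knockout replicate 3 was lowest at all 3. Relative to the wild-type mean, knockout replicates 1, 2 and 3 were at 35.1%, 39.2% and 30.7% for Scn3b at 1435767_at. For Scn7a at 1436044_at they were at 67.2%, 65.6% and 57.8%. The plot of both genes relative to the wild-type mean shows that the distance between genotypes was larger for Scn3b than for Scn7a on each knockout array. These are values of genes chosen for their difference, and no test was made between them.

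**Figure D2:**
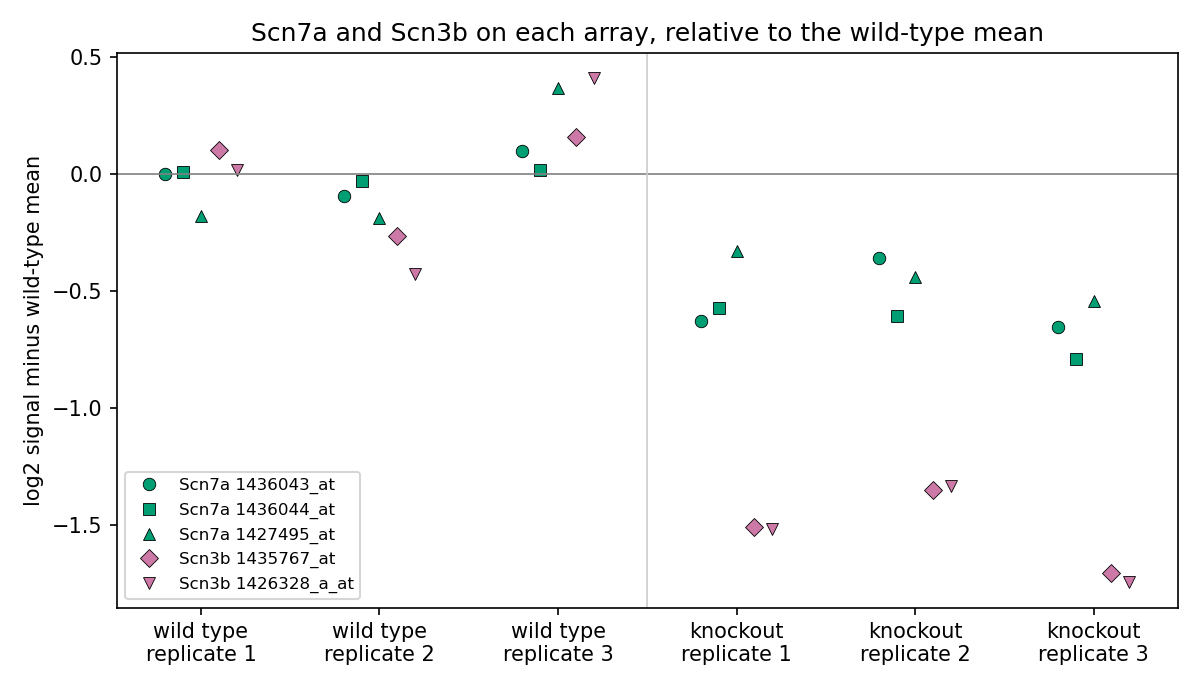
Log2 signal minus the wild-type mean for the 3 probe sets of Scn7a (green) and the 2 of Scn3b (pink) on each array, 1 point per probe set. The knockout points of Scn3b lie between −1.75 and −1.34 and those of Scn7a between −0.79 and −0.33.

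Scn2b had 3 probe sets, of which 1 was above background on all arrays. At 1436134_at wild type gave 104, 109 and 91.8 and knockout 78.7, 91.6 and 112, with overlapping groups and a log2 difference of −0.12 (SE 0.28, interval −0.76 to 0.51). At 1430648_at the signals were 56.2, 50.9 and 37.5 in wild type and 92.7, 63.1 and 60.9 in knockout, close to background and without overlap in the opposite direction. At 1457144_at they were 66.2, 50.5 and 40.9 against 53.9, 36.5 and 96.1, again overlapping. The probe sets of Scn2b did not point one way.

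**Figure D3:**
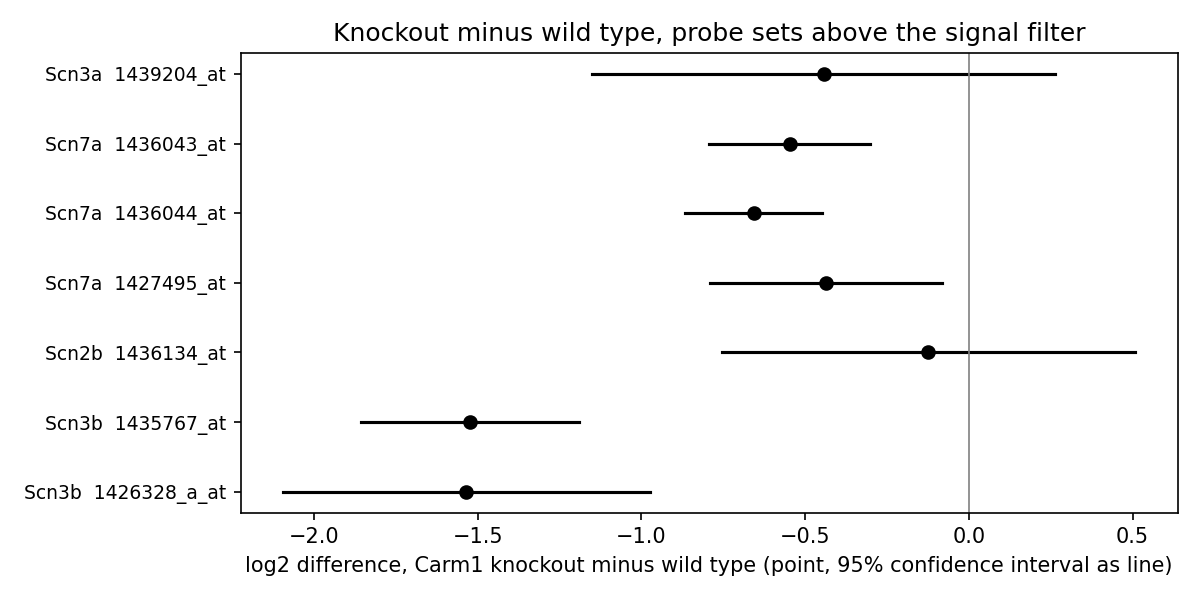
Log2 difference, Carm1 knockout minus wild type, with its 95% confidence interval from limma, for the 7 sodium channel probe sets above the signal filter. The intervals of Scn7a and Scn3b lie below 0, and those of Scn3a and Scn2b include 0. The genes were chosen with these differences known, so the position of an interval against 0 is not a test.

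Over all 23 probe sets, 12 were lower and 11 higher in knockout, with a median difference of −0.11 against 0.03 over all 45037 probe sets that were not controls. However, 13 of the 23 exceeded background on no array, and the median was the value of 1 of these, Scn8a at 1451894_a_at. The knockout arrays lay below the wild-type arrays at 5 of the 7 probe sets above the filter, those of Scn3b and Scn7a, where 9.36% of all tested probe sets did so. They lay above at 2 of the 16 probe sets below the filter, 1 of Scn9a and 1 of Scn2b, where 5.73% of all probe sets below the filter did so. The adjusted threshold of 0.05 (limma, Benjamini-Hochberg) was passed by 8 of 27022 tested probe sets, or 0.0296%, and 1 of these was Scn3b at 1435767_at. Because the genes were chosen with this contrast known, nothing is read from these counts. The same holds for the fits below in which the call of Scn3b was kept or lost. The call of Scn3b ended when replicate 1 (difference −1.47) or replicate 3 (−1.44) of wild type, or replicate 2 (−1.61) or replicate 3 (−1.43) of knockout was left out. It also ended without an intensity trend in the variance, with the replicate number as a block (difference −1.52), with bacterial RNA as a term and on the 4 arrays without bacterial RNA (−1.26 in both), where wild type had 1 array and the spread came from the knockout arrays alone.

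Genes near Scn7a and Scn3b on their chromosomes were also compared, chosen by position after the values of the channels were known. In the row on chromosome 2, Galnt3, a glycosyltransferase, had means of 499 ± 98.7 for wild type and 489 ± 105 for knockout (SD, n = 3; limma, adjusted p = 0.964), and Ttc21b, of the ciliary transport machinery, 497 ± 34.2 and 569 ± 68.9 (adjusted p = 0.603). Csrnp3 was below the filter. Beyond Scn7a, with 3 protein-coding genes between, the kinase gene Stk39 was at 690 ± 137 and 562 ± 47.8 (limma, adjusted p = 0.511). The nearer B3galt1 on that side, and Tmem225 near Scn3b, were below the filter. On chromosome 9, Scn3b lies between Zfp202 and Gramd1b, which had log2 differences of 0.19 (interval −0.34 to 0.72) and 0.14 (interval −0.34 to 0.62). Clmp, an adhesion molecule gene next to Gramd1b, was at 403 ± 18.3 and 316 ± 129 with a difference of −0.43 (interval −1.02 to 0.17; limma, adjusted p = 0.52). None of the tested neighbours passed the adjusted threshold. In the main fit this threshold was passed by 0.0296% of all tested probe sets, and by no probe set of Scn7a.

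The genes with the pattern most like Scn7a at 1436043_at over the 6 arrays were Mmd, Chmp4c, Cp, Rmdn2 and Glul, with Pearson correlations of log2 signal between 0.992 and 0.996. Those most like Scn3b at 1435767_at were Ust, Pon3, Cp, Sft2d2 and 1810058I24Rik, between 0.993 and 0.996. The correlations of their deviations from the group means were between 0.941 and 0.985 for Scn7a and between 0.873 and 0.938 for Scn3b. These points share the 6 arrays and the difference between genotypes. The genes were taken as those of highest correlation among the tested probe sets. High values, also those of the deviations, therefore come partly from that choice and are no separate check. The order of the 6 arrays was the same for Scn7a at 1436043_at and Scn3b at 1435767_at. Cp, encoding the copper-carrying ferroxidase ceruloplasmin, appeared in both sets through different probe sets, with means of 846 in wild type and 279 in knockout at one and 283 and 109 at the other (limma, adjusted p = 0.0934 and 0.0909). Glul, glutamine synthetase, had means of 8632 and 5569 (adjusted p = 0.0955).

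Further subunits of the family were near background as well. Of 4 such genes with a probe set only Scn4b, a beta subunit linked by a disulfide bond, passed the filter, with signals of 79.9 ± 17.2 (SD, n = 3) and 62.6 ± 3.76 (limma, adjusted p = 0.702). Scn2a, Scn10a and Scn11a, alpha subunits of central and of sensory neurons, were below the filter at all their probe sets, with group means from 3.34 to 33.6.

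Over all 12947 tested genes, the background for the counts of gene and marker lists, 45.4% were lower in knockout. An unadjusted p under 0.05 in limma was reached by 16.5% of them, 7.36% lower and 9.14% higher. Proteins that bind or regulate sodium channels showed no call over all probe sets. Of 17 tested partners 10 were higher and 7 lower, with 0 past the adjusted threshold in limma and 4 at an unadjusted p under 0.05, and the median was 0.12 against 0.03 over all tested genes. The partners of smallest p were Nedd4l, a ubiquitin ligase that removes sodium channels from the membrane, at 4796 ± 511 and 3315 ± 455 (adjusted p = 0.153), and Rangrf, which promotes the delivery of sodium channels to the cell surface, at 475 ± 61.1 and 707 ± 121 (adjusted p = 0.209). Of 7 tested genes for other sodium entry and pumping 5 were lower and 0 passed, with 3 at an unadjusted p under 0.05, and the epithelial channel subunits Scnn1a and Scnn1g differed by −1.29 and −1.09 (adjusted p = 0.13 and 0.169). Voltage-gated calcium channels had 8 tested genes, 5 lower, 0 past the threshold and 2 at an unadjusted p under 0.05. Their smallest p values were those of Cacna1d, a pore subunit (difference −0.35, adjusted p = 0.286), and Cacnb4, a beta subunit (−0.71, adjusted p = 0.325). Voltage-gated potassium channels had 17 tested genes, 9 lower and 8 higher, 0 past the threshold and 2 at an unadjusted p under 0.05. Kcne4, an accessory subunit, differed by 0.68 (adjusted p = 0.215) and Kcna2 by −0.51 (adjusted p = 0.264).

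Marker lists of cells in which sodium channels are best known were set beside Scn3b and Scn7a. Of 17 neuron markers on the array 4 passed the filter and 4 did not exceed background on any array (Elavl3, Elavl4, Snap25 and Th). Their summed signal ran from 1424 to 1899 in wild type and from 1283 to 1699 in knockout, with overlapping groups. Stmn2, a neuronal tubulin regulator, was at 694 ± 197 and 388 ± 35.6 (limma, adjusted p = 0.16), and Gap43, a growth cone protein, at 278 ± 15.5 and 405 ± 61.3 (adjusted p = 0.238). The summed Schwann cell markers overlapped too, from 4293 to 4698 in wild type and from 4328 to 5363 in knockout. Their members of smallest p were Fabp7, a fatty acid binding protein (difference 1.47, adjusted p = 0.198), and Cnp, a myelin enzyme (0.35, adjusted p = 0.369). Neuroendocrine markers summed to between 1098 and 1950.4 in wild type and between 1028.5 and 1545 in knockout, and Scg2 and Uchl1 had the smallest p (adjusted p = 0.365 and 0.435). A few bright probe sets carried some of these sums, such as Ccn3, a secreted matrix protein, in the neuroendocrine list (564 to 1405 in wild type, 524 to 867 in knockout). The wild-type and knockout arrays of Stmn2 did not overlap, from 546 to 918 and from 354 to 425. Such a separation with lower knockout signal occurred at 9.36% of all tested probe sets. Gap43 was also without overlap but in the opposite direction, from 262 to 293 in wild type and from 346 to 469 in knockout. Of the 4 tested neuron markers 3 were higher and 1 lower in knockout, with a median difference of 0.36. The part of these cells in the differences of Scn3b and Scn7a was not tested.

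Markers of 2 lung cell types were lower in knockout together with Scn3b and Scn7a. All 10 alveolar type I markers were lower, with 0 past the adjusted threshold and 8 at an unadjusted p under 0.05 (7.36% of all tested genes were lower at that p), and their sum ran from 110420 to 147780 in wild type and from 73426 to 94268 in knockout. None was at background, and the smallest p values were those of Col4a3, a basement membrane collagen (836 ± 180 and 271 ± 69.5, limma, adjusted p = 0.0852), and Emp2, a membrane protein (18278 ± 2746 and 10445 ± 1199, adjusted p = 0.0934). Of 8 endothelial markers 7 were lower, all 7 at an unadjusted p under 0.05 and 0 past the adjusted threshold, with sums from 22471 to 25219 and from 16944 to 19517. Car4 of lung capillaries differed by −2.08 and the receptor component Ramp2 by −0.37 (adjusted p = 0.0852 and 0.182). Knockout replicate 3, the lowest array for Scn3b and Scn7a, was lowest for both sums and for 7 of all 17 list sums, among them those of alveolar type II cells, macrophages, sodium entry and channel partners. The part of either cell type in the differences of Scn3b and Scn7a was not tested.

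**Figure D4:**
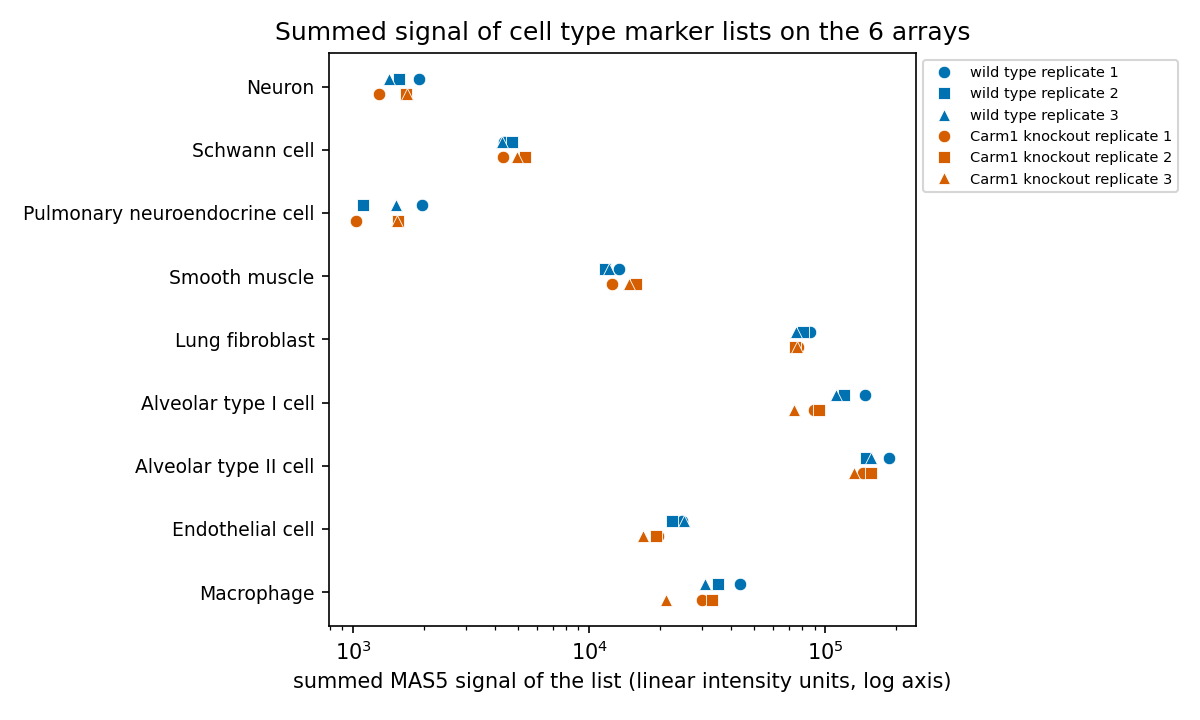
Summed MAS5 signal (log axis, linear intensity units) of each cell type marker list on the 3 wild-type (blue) and 3 Carm1 knockout (orange) arrays, 1 point per array. The genotypes are apart for alveolar type I and endothelial markers and overlap for neuron and Schwann cell markers.

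The other lung cell types in the plot of summed markers did not separate the genotypes in the same way. Lung fibroblast markers were split, 6 higher and 6 lower, with sums from 74988 to 86512 in wild type and from 74479 to 76771 in knockout. At an unadjusted p under 0.05 in limma, 3 of them were lower and 3 higher. Lum, a matrix proteoglycan, and Limch1 had the smallest p there (differences 2.42 and −0.47, limma, adjusted p = 0.13 and 0.16). Alveolar type II markers were lower in 7 of 9, led by Cxcl15 and Muc1 (adjusted p = 0.153 and 0.202), with overlapping sums from 147920 to 186510 and from 132340 to 156630. In limma, 3 of the 9 were lower at an unadjusted p under 0.05 and 0 higher. Over all tested genes 7.36% were lower and 9.14% higher at that p. Of the smooth muscle markers 6 of 7 were higher, with Cnn1 and Actg2 of smallest p (adjusted p = 0.243 and 0.324), and their sums ran from 11644 to 13412 and from 12458 to 15839. At an unadjusted p under 0.05 in limma, 2 were higher and 0 lower. Macrophage markers were even, 4 higher and 4 lower, with C1qa and C1qb of smallest p (adjusted p = 0.198 and 0.251). At an unadjusted p under 0.05 in limma, 1 was lower and 2 higher. Their sums overlapped, from 30896 to 43541 in wild type and from 21111 to 33101 in knockout.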

How the data were processed

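Total RNA of mouse lung was hybridised to Affymetrix Mouse Genome 430 2.0 arrays, 3 per genotype. The deposited values were linear intensity values per probe set made by the authors with MAS5, per the submitters' processing notes. Its version and settings are not given in the sources used here, and detection calls were not used. The number of arrays limits the precision, and since separate animals are not stated, p-values reflect only spread among these samples, possibly technical.

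Symbols came from the platform annotation, brought up to date by matching gene IDs to RefSeq genes. Nav2, an old name of Scn7a and the present name of another gene, was thereby kept apart. A single symbol was available for 34945 probe sets, several for 932, and 9160 are unnamed here. Probe sets with a mean log2 signal above the 40th percentile were tested, 27022 in all. The test was limma 3.58.1 (two-sided; lmFit, then eBayes with its variance trended on intensity; R 4.3.3, data.table version 1.17.8), knockout minus wild type, no pseudocount and no further normalization, with Benjamini-Hochberg adjustment over all tested probe sets at 0.05. Probe sets below the filter were fitted without it for description.

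The subunits and the 17 gene and marker lists were chosen with earlier results of these data known. Named were all subunits, from each list the members past the threshold and otherwise the 2 of smallest p, and the 5 genes most like each of 2 leading probe sets. A list used 1 probe set per gene, that of highest mean. Same-numbered samples were not paired: correlations of their deviations from the group means were −0.136, −0.38 and −0.006. There were 16 alternative fits.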

Additional observations from a re-analysis of the deposited data

How the results depend on the processing

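The differences of Scn3b and Scn7a stayed negative at all 5 probe sets in the main fit and the 16 alternatives, from −1.66 to −1.26 at Scn3b 1435767_at, from −1.75 to −1.11 at 1426328_a_at, and from −0.70 to −0.25 over the probe sets of Scn7a. Scn3a at 1439204_at ran from −0.58 to −0.19 and Scn2b at 1436134_at from −0.26 to −0.003. The count of 8 probe sets past the adjusted threshold in limma became 0 without an intensity trend (3287 at an unadjusted p under 0.05), 40 with robust variance, 3 with the 4 arrays without bacterial RNA (1 wild-type array, assumed to vary like the knockout arrays), 2 with bacterial RNA as a term and 4 with sex as a term. With 1 array left out it ran from 0 to 13. It was 0 on leaving out replicate 1 or 3 of wild type or replicate 2 or 3 of knockout, 2 on leaving out replicate 2 of wild type and 13 on leaving out replicate 1 of knockout (2425 to 3473 at an unadjusted p under 0.05 over these fits). The replicate number as a block gave 0 (3054 at an unadjusted p under 0.05), and 0 of 6 arrays correlated best with the array of their own number. Col4a3 and Car4 passed with robust variance, and Car4 also without knockout replicate 1. Of the 17 settings, Scn7a at 1436044_at passed in 1, Scn3b at 1426328_a_at in 1 and Scn3b at 1435767_at in 9. Nothing is read from these passes of chosen genes. The median over the 7 subunits with a probe set, −0.13, was the value of Scn1a at 1450121_at, which exceeded background on no array. It became 0.18 with the mean over all probe sets of a gene, where 3 and not 5 subunits were lower. With 1 array left out it ran from −0.34 to −0.003, the lowest without wild type replicate 3. These medians therefore rest partly on signal at background. Signal under 57.1 limits Scn1a, Scn8a and Scn9a, for which a difference was not measurable here.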

Other observations

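Muscle genes varied strongly between arrays, although Scn4a, their sodium channel, was not measured. The summed signal of 12 skeletal muscle markers was 1504, 5072 and 639 in wild type and 1315, 2258 and 56076 in knockout, so that knockout replicate 3 stood far above the other arrays. Of 9 tested members 8 were higher with a median difference of 1.45, and 0 passed the adjusted threshold in limma or had an unadjusted p under 0.05. Without knockout replicate 3 the median was −0.44, and on the 4 arrays without bacterial RNA it was −0.29. Ckm, muscle creatine kinase, and Tnni2, a fast troponin, had the smallest p (adjusted p = 0.387 and 0.475).

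The summed cardiac muscle markers were 14092, 18335 and 6013 in wild type and 15074, 49747 and 22741 in knockout, highest on knockout replicate 2. Of 9 tested members 8 were higher, with 0 past the adjusted threshold in limma and 4 higher at an unadjusted p under 0.05 (9.14% of all tested genes were), and their median of 0.76 was 0.22 without knockout replicate 2, 0.40 without wild type replicate 3, 1.21 without knockout replicate 3 and 0.26 on the 4 arrays without bacterial RNA. Myh7, a slow myosin, and Actc1, cardiac actin, had the smallest p (adjusted p = 0.288 for both). Neither list followed the order of the arrays seen for Scn3b.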
